A study of Mus musculus with 6 samples.

Results

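The 10 genes described here make up the core of MHC class I antigen processing: the class I light chain gene *B2m*, the heavy chain genes *H2-K1* and *H2-D1*, the peptide transporter genes *Tap1* and *Tap2*, the tapasin gene *Tapbp*, the immunoproteasome subunit genes *Psmb8*, *Psmb9* and *Psmb10*, and the transactivator gene *Nlrc5*. They were chosen by symbol, and each was found once among the 32285 genes counted. RNA was measured in single cells of the small intestinal epithelium of wild-type male C57BL/6J mice of about 30 weeks, after 16 weeks of diet and 5 weeks after surgery. LFD sham mice ate a low-fat diet and had a sham operation, HFD sham mice ate a high-fat diet and had the same operation, and HFD VSG mice ate the high-fat diet and underwent vertical sleeve gastrectomy (VSG), which removes most of the stomach. Cells were pooled before capture, from 3 mice in either sham group and from 2 in the VSG group, into 1 library labelled as crypts and 1 labelled as villi per group. The spread between mice is therefore unknown, and no difference between groups was tested.

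MHC class I molecules display short peptides from proteins made inside the cell, so that CD8+ T cells can recognize an infected or altered cell. Peptides are cut by the proteasome, pumped into the endoplasmic reticulum by the TAP transporter, and loaded onto a heavy chain paired with beta-2 microglobulin with the help of tapasin. In cells exposed to interferons, 3 catalytic subunits of the proteasome are replaced by the inducible subunits encoded by *Psmb8*, *Psmb9* and *Psmb10*, which gives the immunoproteasome, and NLRC5 is the transactivator of class I promoters. The gut epithelium lies against a dense layer of intraepithelial T cells.

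Each captured molecule was counted once by its unique molecular identifier (UMI), near the 3′ end, so that counts do not scale with gene length. Levels are given as CPM, the UMIs of a gene scaled to a common total of UMIs, summed over all cells of a class in a library, and intervals in parentheses are 95% limits that cover counting error only. The 6 libraries held 60522766 to 155522445 UMIs in called barcodes, and 2888 to 4671 cells per library passed the filters. The 10 genes gave 111625 to 286242 UMIs per library, or 0.134% to 0.274% of all UMIs. Any 2 libraries shared 17 to 43 barcodes, at most 0.45% of the smaller one. Cells were grouped without using the 10 genes or other class I genes, and groups were named by fixed markers. Clusters 1, 3, 4, 5, 6 and 17, with 2838, 2035, 2028, 1701, 1483 and 133 cells, could not be named. Their cells are in no class below but count in the percentages of cells. Clusters 1 and 6 had *Sult6b2* among their leading genes, as the enterocyte-like cluster 0 did. Enterocyte-like values therefore need not cover all enterocytes. The compartment labels ran against the markers in each of the 3 groups for stem-like, cycling progenitor-like, enterocyte-like and villus tip-like cells. They did so for the named Paneth-like cells too, but that order depends on naming. Cluster 3 held 11 of 12 Paneth markers but was left unnamed. It had 516, 237 and 456 cells in the LFD sham, HFD sham and HFD VSG crypts and 272, 378 and 176 in the villi. Stem-like cells were 1.08% to 3.23% of the cells in the crypt-labelled libraries and 2.76% to 10.4% in the villus-labelled libraries, cycling progenitor-like cells 1.13% to 1.65% and 3.03% to 7.41%, and Paneth-like cells 0.749% to 1.52% and 1.06% to 5.68%. Enterocyte-like cells were 39.2% to 43.0% of the crypt-labelled and 15.2% to 27.2% of the villus-labelled libraries, and villus tip-like cells 5.59% to 7.34% and 0.354% to 2.43%. Crypts and villi below are therefore the names of the labels. Immune-like cells were 0.135% of the HFD sham villi (5 cells), against 13.2% of the LFD sham villi and 9.86% of the HFD VSG villi, so immune-like values exist for 5 libraries. For the same reason villus tip-like values leave out the 15 cells of the HFD VSG villi, and tuft-like values leave out the HFD sham crypts.

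Across cell classes, the class I molecules themselves were highest in immune-like cells by class median, followed by villus tip-like and enterocyte-like cells for *B2m* and *H2-K1* and by tuft-like and villus tip-like cells for *H2-D1*, and several times lower in stem-like and dividing cells. *B2m*, which encodes the light chain shared by all class I molecules, lies at chr2:122147686-122153083 (GRCm38). In enterocyte-like cells it was at 1314, 1131 and 1131 CPM in the LFD sham, HFD sham and HFD VSG crypts, and at 980, 795 and 715 CPM in the villi in the same order. All 3 crypt-labelled libraries thus lay above all 3 villus-labelled ones, and so did the free RNA in droplets without a cell, with 843 to 977.5 CPM of *B2m* in the crypts and 339 to 481 CPM in the villi. In stem-like cells the level of *B2m* ran from 199.7 to 297 CPM over the 6 libraries, and in cycling progenitor-like cells from 212 to 289 CPM, so these classes overlapped each other and lay below every enterocyte-like value, and also below the free RNA of their own library. Villus tip-like cells held 1216 to 1555 CPM and immune-like cells 1295 to 1705 CPM, and these ranges overlapped. Goblet-like cells (164 to 392 CPM) and cells of enteroendocrine (EEC-like) type (112 to 299 CPM) resembled the stem-like cells in level. Within each library, *B2m* in stem-like cells differed from enterocyte-like cells by −2.16 to −1.58 log2 units, while the median of all genes differed by 0.10 to 0.47.

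*H2-K1* (chr17:33996017-34000347, minus strand) and *H2-D1* (chr17:35262730-35267499, plus strand) encode the polymorphic heavy chains that hold the peptide. Reads of both can be shared with near-identical class I genes of the same region, so their UMIs may be split or lost and their levels are uncertain to that extent. In enterocyte-like cells *H2-K1* was at 949.8, 769 and 799.6 CPM in the LFD sham, HFD sham and HFD VSG crypts and at 713, 538 and 495 CPM in the villi. The order of classes was the same as for *B2m* at the top, with 1377 to 1690 CPM in immune-like and 1305 to 1870 CPM in villus tip-like cells, and stem-like cells were at 146 to 240 CPM. *H2-D1* had a flatter profile, with 312 to 449 CPM in enterocyte-like, 546 to 803 CPM in villus tip-like, and 113 to 153 CPM in stem-like cells. Tuft-like cells, the chemosensory cells of the epithelium, stood apart in this gene alone among the 3 class I molecule genes: *H2-D1* was at 566 to 1108 CPM, a range that overlapped the villus tip-like and immune-like ones and lay above all enterocyte-like values, whereas their *B2m* was at 107 to 556 CPM. This tuft-like range rests on 22 to 58 cells per library.

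The promoters of these 3 genes are shown because they share a spaced pair of short elements, which was noticed after the windows had been examined. Windows of 250 bases before to 50 after the start of transcription (RefSeq, GRCm38.p6) were found for 8 of the 10 genes and not used for *Tap2* and *Nlrc5*. Class I promoters are known to carry an X2 box and a Y box, and the letters searched on both strands were TGACG for the core of the first and CCAAT for the core of the second, which reads ATTGG when it lies on the opposite strand. The X2 core followed after 20 bases by the Y core in that orientation was in the windows of *B2m*, *H2-K1* and *H2-D1*, and in 31 of the 32851 windows of all genes (0.0944%). In the 70-base segments below, written 5′ to 3′ on the strand of each gene, capitals mark the pair. The RefSeq start used for *H2-D1* lies inside the annotated span given above.
*B2m* (chr2:122147589-122147658, plus strand): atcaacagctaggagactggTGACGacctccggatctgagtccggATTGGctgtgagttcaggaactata
*H2-K1* (chr17:34000339-34000408, minus strand): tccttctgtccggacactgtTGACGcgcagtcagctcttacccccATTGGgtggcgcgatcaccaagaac
*H2-D1* (chr17:35262973-35263042, plus strand): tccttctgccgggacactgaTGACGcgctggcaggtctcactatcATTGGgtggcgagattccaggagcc
Each element on its own was common, TGACG in 20.8% and CCAAT in 37.4% of all windows, against 5 and 6 of the 8 genes. The core of the interferon-stimulated response element, GAAANNGAA, was in 8.56% of all windows and in that of *B2m* only among the 8. The windows say nothing of binding, which was not measured.

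The transporter genes *Tap1* and *Tap2* were highest in immune-like cells, as the class I molecules were, and parted from them at the villus tip, whereas the loading gene *Tapbp* did not. *Tap1* and *Tap2* encode the paired subunits of the TAP transporter. *Tap1* (chr17:34187553-34197225) was at 27.5, 19.0 and 22.8 CPM in the enterocyte-like cells of the LFD sham, HFD sham and HFD VSG crypts and at 28.6, 23.2 and 22 CPM in the villi, and *Tap2* (chr17:34203527-34216321) at 18.6 to 24.5 CPM over the 6 libraries. In immune-like cells *Tap1* was at 61.1 to 79.8 CPM and *Tap2* at 40.0 to 72.9 CPM, above every epithelial class. In villus tip-like cells, where *B2m* and *H2-K1* were at their epithelial highest, *Tap1* was at only 3.75 to 13.9 CPM, with log2 differences from enterocyte-like cells of −1.79 to −1.04 in the 5 libraries. Those values rest on 52 UMIs of *Tap1* in all. *Tap2* was at 7.51 to 16.65 CPM there, with log2 differences of −1.375 to −0.558, from 59 UMIs. The median of all genes differed by −0.62 to −0.18. Relative to that median *Tap1* was at −1.27 to −0.56 and *Tap2* at −0.96 to −0.07. *Tapbp* (chr17:33915899-33929292), whose product tapasin bridges TAP and the empty class I molecule, did not follow the transporter genes there: it was at 131 to 194 CPM in villus tip-like, 92.4 to 148 CPM in enterocyte-like, and 35.5 to 56.8 CPM in stem-like cells.

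**Figure D1:**
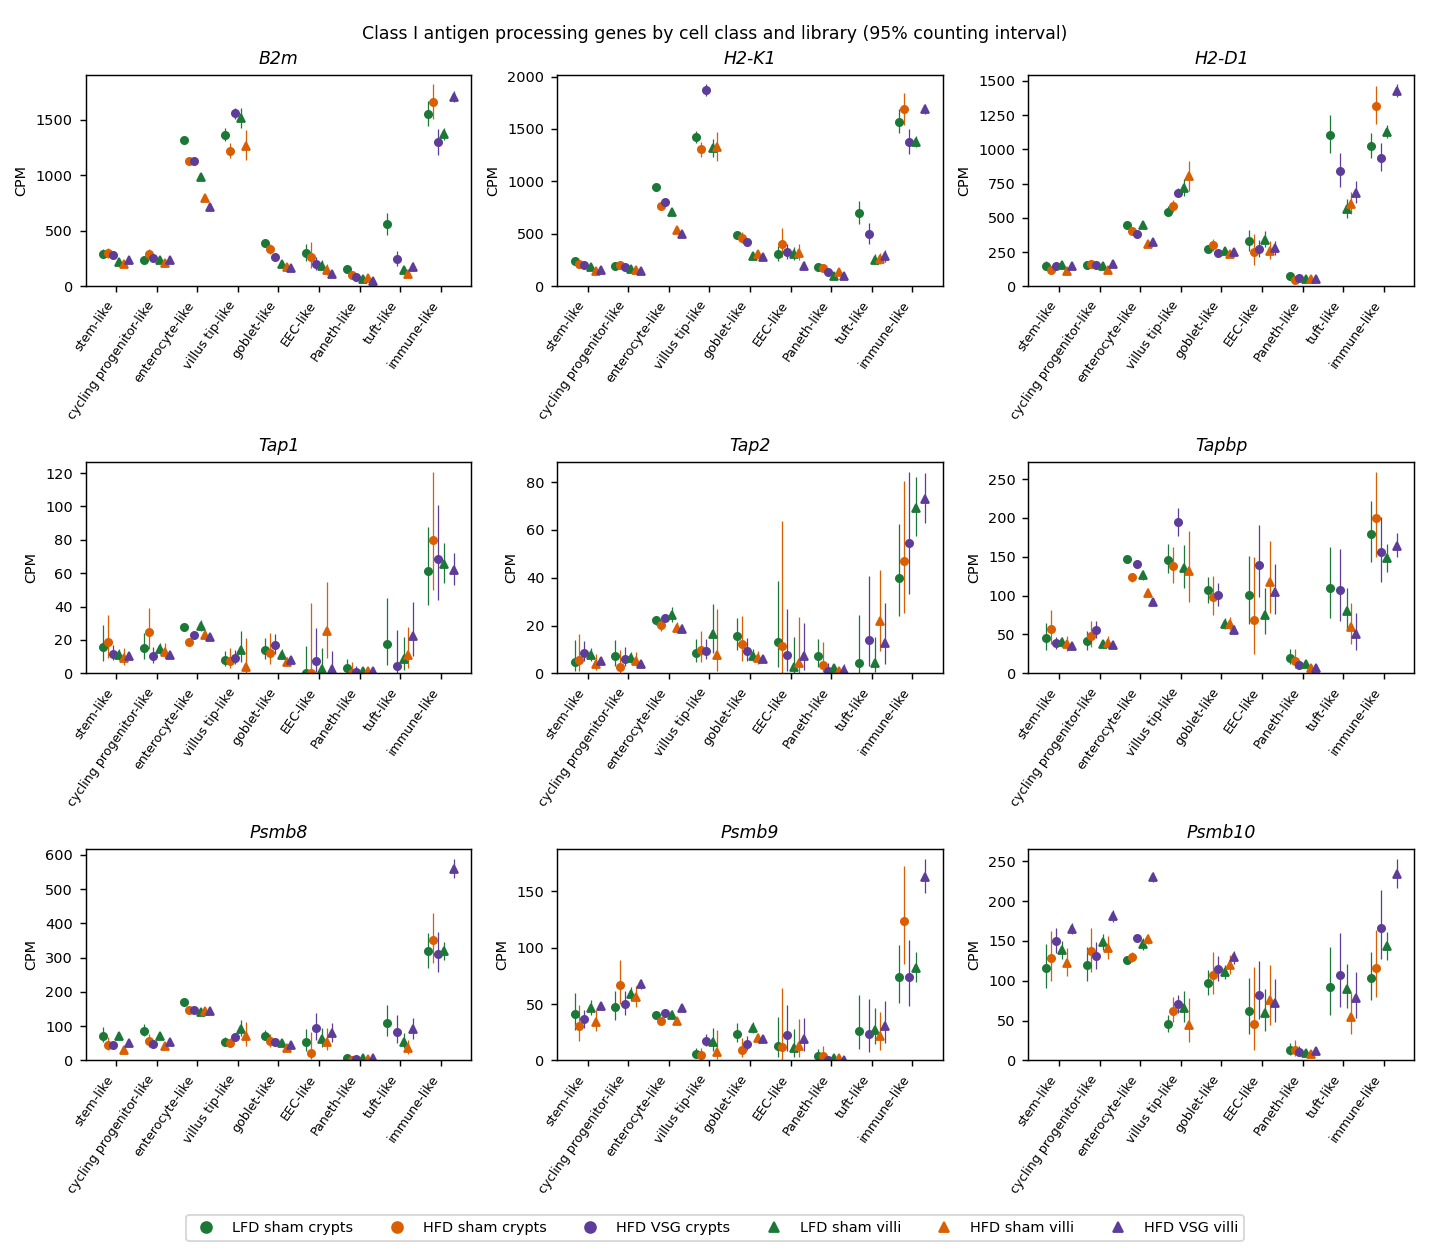
Levels in CPM (linear axis from 0) of 9 of the genes in each cell class, 1 point per library with its 95% counting interval, coloured by group and shaped by compartment label, for classes with at least 20 cells. In *B2m* the enterocyte-like, villus tip-like and immune-like points (715 to 1705 CPM) stand above all points of the other classes, whereas *Psmb9* and *Psmb10* are about as high in stem-like and cycling progenitor-like as in enterocyte-like cells.

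The immunoproteasome genes had a different order of classes from the class I molecules. *Psmb8* (chr17:34197721-34201454) was at 172, 147 and 149 CPM in the enterocyte-like cells of the LFD sham, HFD sham and HFD VSG crypts and at 141, 144 and 144 CPM in the villi, below the 312 to 560 CPM of immune-like cells and above the 31.1 to 72.5 CPM of stem-like cells. *Psmb9* (chr17:34181987-34187764) overlapped between stem-like cells (30.3 to 48.3 CPM) and enterocyte-like cells (34.8 to 46.6 CPM), and was higher in cycling progenitor-like cells (47.4 to 68.0 CPM). *Psmb10* (chr8:105935735-105938444) varied little between these classes, with 126 to 230 CPM in enterocyte-like, 120 to 182 CPM in cycling progenitor-like and 116 to 165 CPM in stem-like cells, and all neighbours from enterocyte-like to EEC-like cells in the order of its levels overlapped. At the villus tip all 3 were lower than in enterocyte-like cells of the same library, with log2 differences of −1.64 to −0.60 for *Psmb8*, −2.86 to −1.26 for *Psmb9* and −1.76 to −1.06 for *Psmb10*, while that of the median of all genes was −0.62 to −0.18. The values of *Psmb9* there rest on 68 UMIs in all, and its lowest level was 0 CPM after subtraction of free RNA.

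*Psmb9* and *Tap1* lie head to head and overlap by 212 bases at their starts, so their promoter windows share 275 of 300 bases (91.7%). The window of *Tap1* is printed because these 2 genes have nearly 1 window between them: chr17:34187306-34187605 (GRCm38.p6, plus strand), with CCAAT and TGACG in capitals.
*Tap1*: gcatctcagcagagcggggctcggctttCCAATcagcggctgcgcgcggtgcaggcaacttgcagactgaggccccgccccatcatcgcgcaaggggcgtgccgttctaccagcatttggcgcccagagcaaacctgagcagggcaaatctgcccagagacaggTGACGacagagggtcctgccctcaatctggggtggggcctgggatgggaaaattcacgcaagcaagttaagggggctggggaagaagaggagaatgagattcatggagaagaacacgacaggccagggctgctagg
Relative to enterocyte-like cells of the same library, *Psmb9* in cycling progenitor-like cells had log2 differences of 0.22 to 0.95 over the 6 libraries, whereas those of *Tap1* ran from −1.17 to 0.38. The median of all genes differed by 0.23 to 0.585. Relative to that median *Psmb9* was at −0.12 to 0.72, so not higher in each library, and *Tap1* at −1.55 to 0.14. The levels of *Tap1* in enterocyte-like and cycling progenitor-like cells overlapped, and over the epithelial classes and libraries the genes had a Pearson r of 0.82. That value was not particular to the pair: *Tap1* had 0.84 with *Psmb8*, and *Psmb9* had 0.90 with *Psmb10*. *Tap1* had only 10 UMIs in EEC-like, 20 in Paneth-like and 22 in tuft-like cells. *Tap1* and *Psmb9* were both low at the villus tip and highest in immune-like cells. Because UMIs are read near the 3′ end, the overlap at the 5′ ends is not where these genes were counted.

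Among the named classes *Nlrc5* (chr8:94434356-94527272) was found almost only in immune-like cells, at 38.7 to 65.3 CPM in 5 libraries (235 UMIs). The enterocyte-like cells of the 6 libraries held 24, 2, 3, 4, 0 and 5 UMIs of it, at most 1.02 CPM (LFD sham crypts), where droplets without a cell held 1.00 CPM. The 0 UMIs in the HFD sham villi allow up to 3 UMIs among 14785836. Levels this low in the epithelium could not be compared between groups, and *Nlrc5* is in the summed values only.

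Of the named classes, Paneth-like cells had the lowest level of 9 of the 10 genes in order of class medians. Their *B2m* was at 51.7 to 154 CPM. That rank depends on naming. The unnamed cluster 3, with 11 of 12 Paneth markers, had a summed level of the 10 genes of 1588 to 3215 CPM. Paneth-like cells had 229.3 to 473.5 CPM. Their own markers, mostly alpha-defensins and lysozyme, took 66.1% to 73.0% of their UMIs, and the median of all genes in them differed from that in enterocyte-like cells by −2.13 to −1.47 log2 units. Relative to that median *B2m* was at −2.09 to −1.60 and *H2-K1* at −0.97 to −0.21. By the same measure *B2m* was at −2.61 to −1.92 in stem-like and −3.26 to −2.72 in EEC-like cells, and *H2-K1* at −2.40 to −1.99 in stem-like cells. The lowest rank is thus one of CPM and did not hold relative to the median for *B2m* and *H2-K1*. *Psmb8* went the other way, at −4.02 to −2.37 in Paneth-like and −2.53 to −1.42 in stem-like cells. These values are before subtraction of free RNA, which took the median level over the 6 libraries from 76.4 to 44.7 CPM for *B2m* and from 136 to 100.5 CPM for *H2-K1*, with 1 or more libraries at 0 for both.

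The balance of inducible and constitutive catalytic subunits can be set out within a library without any scaling, as the share of UMIs of *Psmb8*, *Psmb9* and *Psmb10* among these and the subunits they replace (*Psmb5*, *Psmb6* and *Psmb7*, respectively). The share was 63.7% to 73.9% in immune-like, 52.7% to 62.7% in enterocyte-like, 44.6% to 57.5% in villus tip-like and 29.4% to 35.4% in stem-like cells. Goblet-like cells (28.1% to 39.0%) were beside the stem-like ones. Paneth-like cells (17.8% to 27.8%) had the lowest median of the named classes. The ranges of enterocyte-like and stem-like cells did not overlap in any of the 3 pairs, and the pair of *Psmb8* and *Psmb5* set them farthest apart (53.8% to 74.4% against 17.9% to 31.9%). In enterocyte-like cells the share was 62.7% (61.8 to 63.5) in the LFD sham, 54.5% (53.4 to 55.6) in the HFD sham and 57.6% (56.9 to 58.3) in the HFD VSG crypts. The villi had 58.4% (57.1 to 59.7), 54.8% (53.8 to 55.9) and 52.7% (52.0 to 53.4). LFD sham had the highest share in both compartments, while HFD VSG lay above HFD sham in the crypts and below it in the villi. From LFD sham to HFD sham the 3 constitutive subunits had a median log2 ratio of 0.35 in the crypts and 0.20 in the villi. The lower share in HFD sham is therefore not a matter of the inducible genes alone. In the HFD VSG villi it was *Psmb8* to *Psmb5* that was low, at 53.8% (52.5 to 55), with *Psmb10* to *Psmb7* at 77.7%. With cells limited to 10% mitochondrial UMIs the shares were 60.0%, 50.6% and 51.7% in the LFD sham, HFD sham and HFD VSG crypts and 55%, 48.6% and 49.8% in the villi, so that HFD VSG then lay above HFD sham in the villi too. RNA shares were measured here, not assembled proteasomes.

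**Figure D2:**
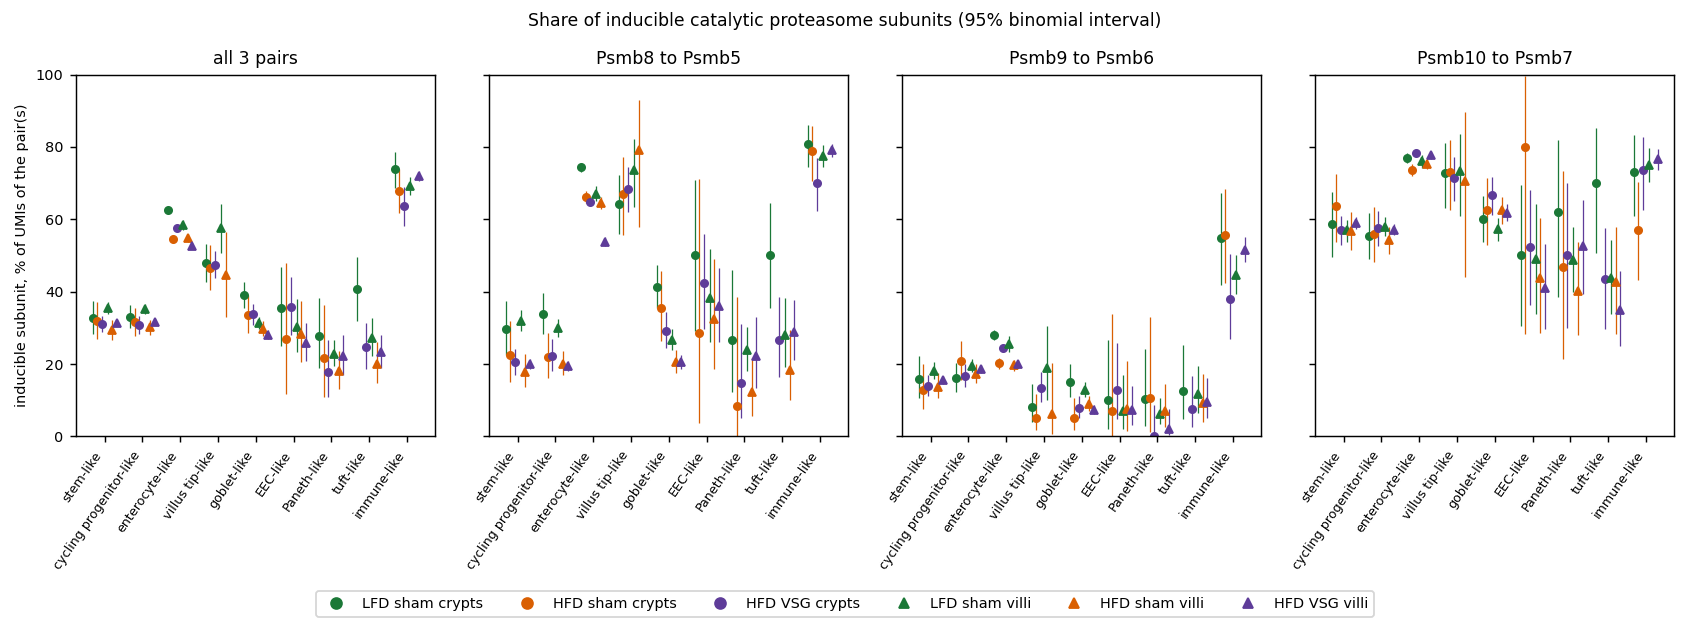
Share of the inducible subunit, in percent of the UMIs of all 3 pairs (left) and of each pair, by cell class, 1 point per library with its 95% binomial interval (colours for groups, shapes for compartment labels). Enterocyte-like points at 52.7% to 62.7% stand between immune-like points and the stem-like points at 29.4% to 35.4%.

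HFD sham was compared with LFD sham to ask what the high-fat diet did. In each of these libraries enterocyte-like cells held more UMIs than any other named class. They were 1600 and 1134 cells in the LFD sham and HFD sham crypts, and 792 and 1007 in the villi. Most of the genes were somewhat lower in HFD sham. In the crypts *B2m* had a log2 ratio of −0.22 (−0.24 to −0.19), *H2-K1* of −0.31 (−0.34 to −0.27), *H2-D1* of −0.16 (−0.21 to −0.11) and *Tap1* of −0.53 (−0.75 to −0.33). In the villi the same genes had −0.30 (−0.34 to −0.26), −0.41 (−0.45 to −0.36), −0.51 (−0.57 to −0.46) and −0.30 (−0.53 to −0.07). *Tapbp* was lower by a like amount in both, with −0.26 (−0.34 to −0.17) and −0.28 (−0.39 to −0.17), and *Tap2* had −0.13 (−0.35 to 0.08) and −0.37 (−0.62 to −0.12). Of the immunoproteasome genes, *Psmb9* was at −0.22 in the crypts and −0.20 in the villi, *Psmb8* at −0.22 and 0.04, and *Psmb10* at 0.04 and 0.06.

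A log2 ratio beyond 0.5 was used to call a gene higher or lower. In the crypts 1 of the 9 measured genes (*Tap1*) was lower and none higher, where 7.38% of all 9151 genes were lower and 5.40% higher, and in the villi 1 of 9 (*H2-D1*) was lower and none higher, where 7.24% of 8719 genes were lower and 6.14% higher. The *H2-D1* ratio in the villi was −0.14 (−0.23 to −0.06) in cluster 0, the largest enterocyte-like cluster, where it no longer passed 0.5. In the enterocyte-like clusters 2 and 9 it was −0.88 (−1.03 to −0.72) and −0.69 (−0.82 to −0.55), past 0.5 in both. The median of the 9 was −0.22 in the crypts and −0.30 in the villi, against −0.02 and 0.02 for all genes. Summed over the 10 genes the level in CPM was 3249 in LFD sham and 2775 in HFD sham crypts, a log2 ratio of −0.23 (−0.24 to −0.21), and 2645 and 2124 in the villi, a ratio of −0.32 (−0.34 to −0.29). After subtraction of free RNA, with the stated fraction for each library, the ratios were −0.13 and −0.21. The fraction taken for the HFD sham crypts and for the HFD sham villi was several times that of any other library, so both HFD sham libraries stand apart in free RNA in each comparison that uses them.

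The libraries held different mixtures of enterocytes. The enterocyte-like class was made of 4 clusters: cluster 0 led by *Sult6b2* and *Cubn*, cluster 2 by *Pmp22* and *Clca4a*, cluster 9 by *Plb1* and *Fabp6*, and cluster 14 by interferon-response genes (*Ifit1*, *Ifit3*, *Isg15*). Cluster 0 had the lowest summed level of the class I molecules in each library but the HFD VSG crypts (2060 CPM, against 2056 CPM in cluster 9). It was 65.3% of the enterocyte-like cells of the HFD VSG villi and 67.4% of those of the HFD sham villi, but 42% in LFD sham. In the crypts it was 47.1% to 47.9% of the cells. By UMIs it was 62.5%, 62.2% and 50.8% of the LFD sham, HFD sham and HFD VSG crypts. Cluster 2 was 17.3%, 17.9% and 30.1% of those UMIs in the same order. Within cluster 0 the summed ratio of HFD sham to LFD sham was −0.06 (−0.09 to −0.02) in the villi, within cluster 2 −0.48 (−0.54 to −0.43) and within cluster 9 −0.46 (−0.52 to −0.40). In the crypts the 3 clusters had −0.18, −0.29 and −0.23. Direction was thus the same in the 3 clusters, but the value in the villi was nearer 0 in cluster 0 alone, an alternative chosen after seeing the data.

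Cells with UMIs of immune genes also differed between these libraries. The immune and B cell genes looked for were *Ptprc*, *Cd3e*, *Cd3g*, *Cd79a*, *Cd79b* and *Ms4a1*. In the LFD sham villi 92 of the 792 enterocyte-like cells (11.6%) held a UMI of any of them, against 2 of 1007 in the HFD sham villi. The 12 immune markers summed to 52.1 CPM and the 4 B cell markers to 94.9 CPM in the former, and to 0.879 and 1.42 CPM in the latter, where 8 of the 12 immune and 3 of the 4 B cell markers were at 0. Without such cells, an alternative chosen after seeing the data, the summed ratio in the villi was also −0.32.

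**Figure D3:**
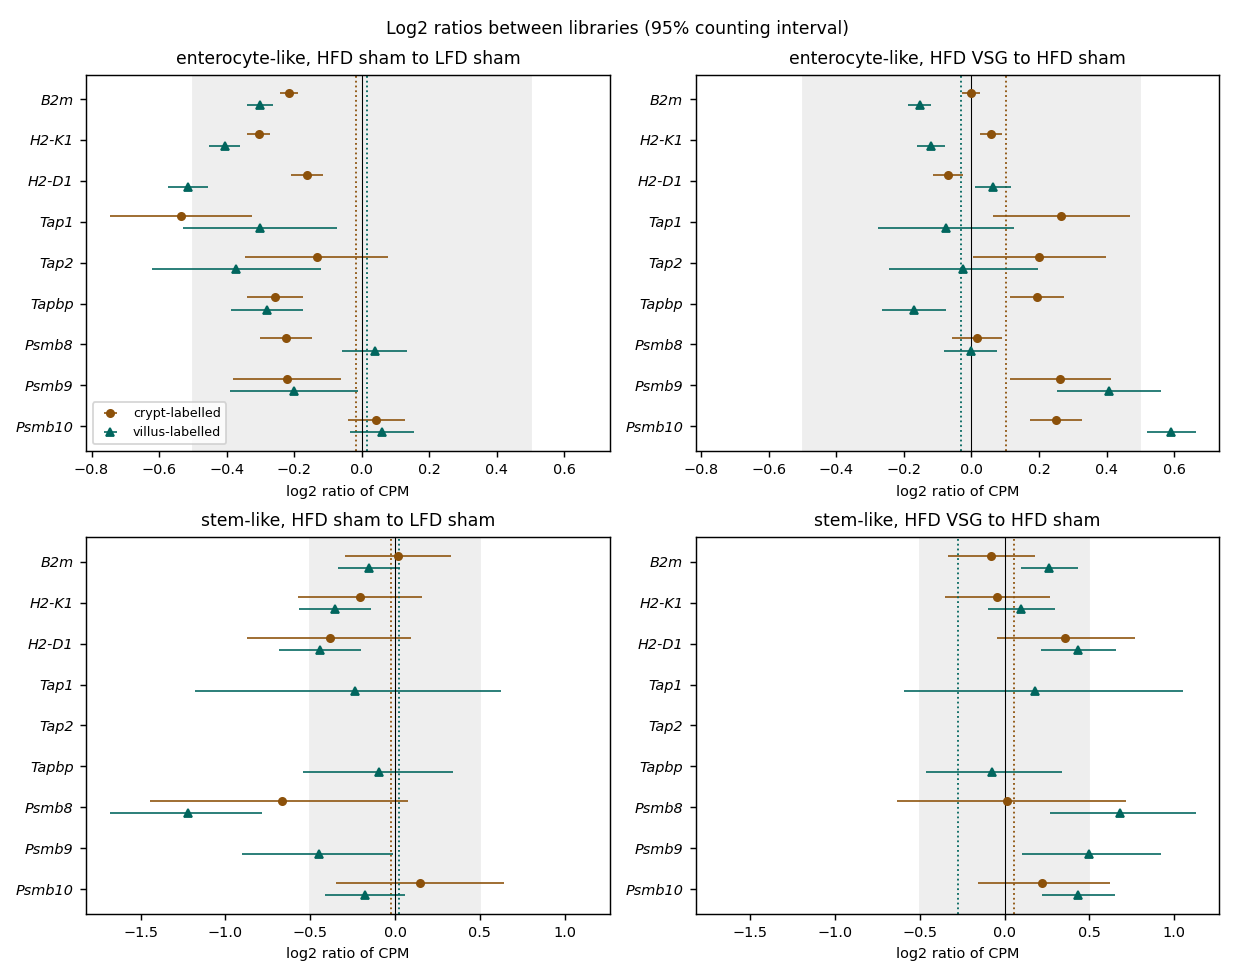
Log2 ratios of CPM between libraries (x axis) for the measured genes (y axis), in enterocyte-like cells (top) and stem-like cells (bottom), with 95% counting intervals. Circles are crypt-labelled and triangles villus-labelled libraries, dotted lines mark the median of all genes, and the grey band spans ratios within 0.5. In HFD sham to LFD sham enterocyte-like cells most points lie left of 0 but inside the band, down to −0.53 for *Tap1* in the crypts.

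HFD VSG was compared with HFD sham to ask what the operation did on the same diet. This comparison uses the same HFD sham libraries as the one above. In the enterocyte-like cells of the crypts (2008 cells in HFD VSG), *B2m* had a log2 ratio of 0.00 (−0.03 to 0.03), *H2-K1* of 0.06 and *H2-D1* of −0.07, while the median of all genes was 0.10. *Tap1*, *Tap2* and *Tapbp* were at 0.26, 0.20 and 0.19, and *Psmb9* and *Psmb10* at 0.26 and 0.25, each higher than the median of all genes by 0.09 to 0.16, while *Psmb8* was at 0.02. None of the 9 genes passed 0.5 in either direction, where 6.84% of all genes were higher and 2.52% lower.

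In the enterocyte-like cells of the villi, *Psmb10* was the gene that differed most between HFD VSG and HFD sham. It was at 230.0 CPM in HFD VSG, against 153 CPM in HFD sham and 146 CPM in LFD sham, a log2 ratio of 0.59 (0.52 to 0.66) to HFD sham. *Psmb9* had a ratio of 0.41 (0.25 to 0.56), whereas *Psmb8* had 0.00 (−0.08 to 0.08) and *B2m*, *H2-K1* and *Tapbp* had −0.15, −0.12 and −0.17. *Psmb10* was the 1 of 9 genes beyond 0.5, where 15.5% of all genes were higher and 15.5% lower, so the count is near the background. Of the 3 constitutive catalytic subunits 1 was beyond 0.5 and higher: *Psmb5*, which *Psmb8* replaces, had a ratio of 0.64 (0.55 to 0.74). *Psmb4*, a structural subunit of the proteasome core, had 0.69 (0.61 to 0.78). Of the 11 other core subunits 4 were higher and none lower, with a median of 0.32, and all 11 lay within 0.5 in the crypts. Summed over the 10 genes the ratio was 0.04 (0.02 to 0.05) in the crypts and −0.02 (−0.04 to 0.00) in the villi. The HFD VSG villi were also the deepest library, with a median of 34729 UMIs per enterocyte-like cell against 14756 in the HFD sham villi, and the part of depth was not tested.

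The immunoproteasome ratio of HFD VSG to HFD sham was not the same in each enterocyte-like cluster. Summed over *Psmb8*, *Psmb9* and *Psmb10*, it was 0.26 in cluster 0, 0.74 in cluster 2 and 0.41 in cluster 9 of the villi, and 0.05, 0.59 and 0.22 in the crypts. In cluster 2 the summed level was 205 CPM in the crypts of both sham groups and 308.5 CPM in those of HFD VSG, and 258 CPM in the villi of both sham groups and 431 CPM in those of HFD VSG (70 cells). The class I molecules of cluster 2 did not follow, with ratios of −0.21 in the crypts and 0.01 in the villi. Its constitutive catalytic subunits had ratios of 0.13 (−0.01 to 0.27) in the crypts and 0.62 (0.41 to 0.83) in the villi. The inducible share of cluster 2 was 59.7%, 50.8% and 58.6% in the LFD sham, HFD sham and HFD VSG crypts and 61.1%, 55.2% and 57.3% in the villi, so that HFD VSG was not above LFD sham. The cells of cluster 2 were also deeper in HFD VSG, with a median of 15760 UMIs against 5128 in HFD sham crypts and 24030 against 5722 in the villi, and the part of depth was not tested.

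**Figure D4:**
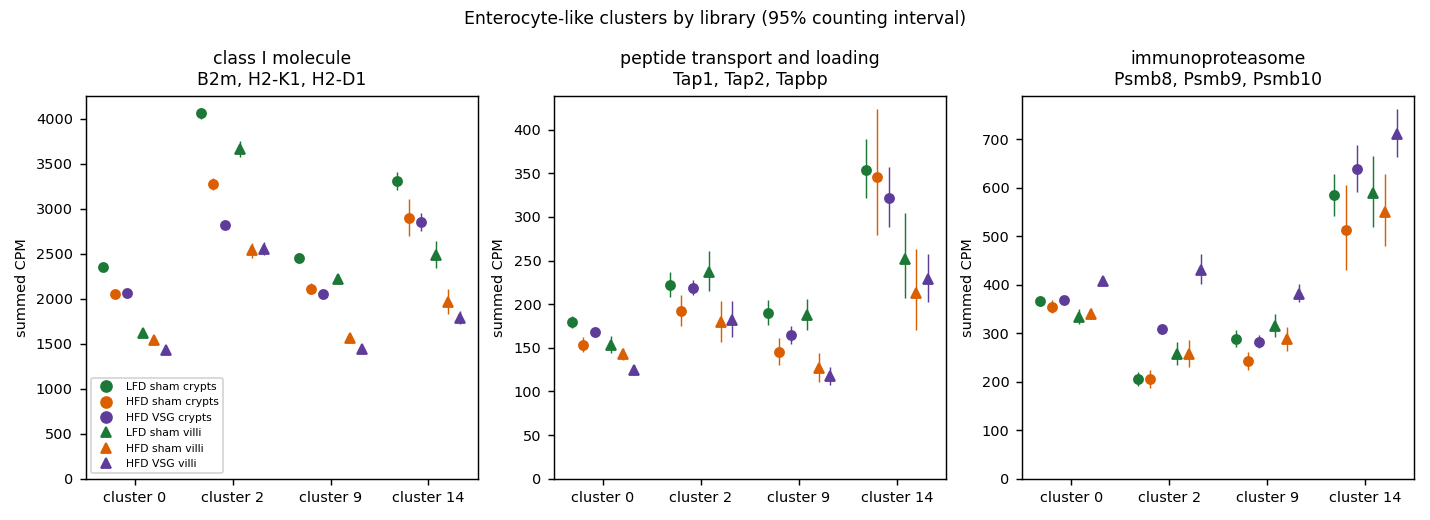
Summed CPM (linear axes from 0) of the class I molecules, of peptide transport and loading, and of the immunoproteasome in the 4 enterocyte-like clusters, 1 point per library with its 95% counting interval. Cluster 0 has the lowest class I molecule level in each library but the HFD VSG crypts, and the highest immunoproteasome and transport levels are in cluster 14.

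Against LFD sham, the enterocyte-like cells of the HFD VSG villi had lower class I molecules, with 1536 against 2138 summed CPM (log2 ratio −0.48, −0.50 to −0.45), lower transport and loading genes (−0.43, −0.52 to −0.35) and a higher immunoproteasome sum (0.36, 0.30 to 0.42). Of that sum *Psmb10* had 0.65 (0.57 to 0.73), *Psmb9* 0.20 and *Psmb8* 0.04. The constitutive catalytic subunits were all 3 higher (median 0.67), as were 7 of 11 other core subunits (median 0.55), where 20.1% of all 8719 genes were higher and 19.2% lower, and the inducible share was lower in HFD VSG, at 52.7% against 58.4%. In the crypts the sums of class I molecules, transport and loading genes and immunoproteasome had ratios of −0.23, −0.07 and 0.03. Of the 9 measured genes 1 (*Psmb10*) was higher and 1 (*H2-K1*, −0.53) lower in the villi, and none passed 0.5 in the crypts, where 9.45% of all genes were higher and 5.19% lower. Cluster 0 was 65.3% of these cells in the HFD VSG villi and 42% in the LFD sham villi. Within it the ratio was −0.18 (−0.21 to −0.14) for the class I molecules, −0.30 for transport and loading and 0.29 for the immunoproteasome. *H2-K1* was at −0.24 there and no longer passed 0.5. Clusters 2 and 9 had −0.52 and −0.63 for the class I molecules and −0.38 and −0.68 for transport and loading. They had 0.74 and 0.27 for the immunoproteasome, and −0.43 and −0.70 for *H2-K1*. This comparison shares libraries with both of the others.

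Cluster 14 was small (23 to 79 cells per library), and its leading genes were known targets of interferon. *Tap1* was at 52.0 to 98.6 CPM in it and *Psmb9* at 64.4 to 113 CPM, both above the whole enterocyte-like class in each library, and its inducible share of 62.9% to 76.1% overlapped that of immune-like cells. *Nlrc5* reached 8.22 CPM in its LFD sham crypts. The 10 genes had no part in the clustering. The groups held it in unequal numbers, with 4.94% of the enterocyte-like cells in LFD sham, 2.03% in HFD sham and 2.74% in HFD VSG crypts, and 3.66%, 2.58% and 4.51% in the villi in that order. Without it, an alternative chosen after seeing the data, *Tap1* had a ratio of HFD sham to LFD sham of −0.38 in the crypts and no longer passed 0.5.

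Other genes tied to antigen presentation differed far more between diets than these 10. The 7 measured class II genes, which present extracellular peptides to CD4+ T cells, were all lower in HFD sham than LFD sham enterocyte-like cells, with a median log2 ratio of −2.62 in the crypts and −3.36 in the villi. *H2-Aa*, a class II heavy chain gene, was at 31.3 against 225 CPM in the crypts and 18.7 against 317 CPM in the villi, and *Cd74*, the invariant chain, at 108.5 against 697 CPM and 68.3 against 859 CPM. Without the cells with an immune UMI the villus median was −3.25, with 7 of 7 lower. *Ciita*, the class II transactivator and a relative of *Nlrc5*, was at 1.92 against 12.99 CPM in the crypts. In stem-like cells of the villi the 5 measured class II genes were also lower, with a median of −3.62.

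Of the 12 interferon-response genes, 10 were measured in the crypts and all were lower in HFD sham (median −2.00), and 5 of the 8 measured in the villi were lower (median −0.57). *Gbp7* and *Igtp*, GTPase genes induced by interferon gamma, were at 0.356 against 11.1 CPM and 1.21 against 18.3 CPM in the crypts, and *Rsad2*, an antiviral gene, at 1.35 against 8.95 CPM. A separate list of interferon gamma signaling and class I regulator genes had 2 higher and 2 lower of 12 in the villi, with a median of 0.01, and 0 higher and 2 lower of 12 in the crypts, with a median of −0.07. Of that list *Irf1*, a transcription factor gene induced by interferon, had a ratio of 0.13 in the crypts and 0.56 in the villi, and *Socs1*, a feedback inhibitor, had 0.57 in the villi. Without cluster 14, 7 of 7 measured interferon-response genes were lower in the crypts, with a median of −1.18, and 5 of 5 in the villi, with a median of −0.93. In cluster 0 alone 5 of 6 were lower in the crypts (median −1.29) and 1 of 4 in the villi (median −0.26). With cells limited to 10% mitochondrial UMIs the medians were −0.97 (3 of 3 lower) and −1.19 (4 of 5), and after subtraction of free RNA with the stated fractions −1.95 (10 of 10) and −0.44 (3 of 8).

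In the crypts of HFD VSG against HFD sham, 7 of 10 interferon-response genes were higher (median 1.06), where 6.84% of all genes were. Among them were *Gbp7* (2.17), *Igtp* (1.65), *Rsad2* (1.48) and *Ifit1* (1.26). Against LFD sham 10 of 10 were still lower in HFD VSG (median −0.86). Of 7 class II genes 5 were lower than in HFD sham (median −0.78), where 2.52% of all genes were. Among them were *H2-Aa* (−1.21), *H2-Ab1* (−0.99), *H2-DMb1* (−0.93), *Cd74* (−0.78) and *H2-Eb1* (−0.76). Without cluster 14 the interferon-response median was 0.48, with 3 of 7 higher, in cluster 0 alone it was 0.68, with 4 of 6 higher, and with cells limited to 10% mitochondrial UMIs it was −0.08, with 1 of 3 higher. Fewer of the genes were measured in each of these than the 10 above. In the villi 4 of 8 interferon-response genes were higher, where 15.5% of all genes were (median 0.48), among them *Irgm1* (0.83), *Isg15* (0.79) and *Ifit3* (0.70). Without cluster 14 the villi median was 0.09, with 1 of 5 higher, and in cluster 0 alone it was 0.02, with 0 of 4 higher. After subtraction of free RNA with the stated fractions 3 of 8 were higher and 1 lower, and with cells limited to 10% mitochondrial UMIs the median was 1.18, with 4 of 5 higher. Of the 7 class II genes in those villi 3 were lower, with a median of −0.33, and of the 12 interferon gamma signaling and class I regulator genes 0 were higher and 3 lower, with a median of −0.16. Among the regulators *Jak2*, a kinase of the interferon gamma receptor, had a ratio of −1.01 (61.3 against 123 CPM) and *Socs1* of −0.88, and the 3 class II genes were *H2-Aa* (−1.38), *H2-Ab1* (−0.81) and *H2-Eb1* (−0.66). The class II median in the villi was −0.97 with cells limited to 10% mitochondrial UMIs (4 of 6 lower) and −0.66 in cluster 0 alone (3 of 6), and with class I genes allowed in the clustering 1 of 6 was higher and 2 lower. In the crypts it was −0.48 (3 of 6 lower) at 10% mitochondrial UMIs. *Ifng* itself was not measured in enterocyte-like cells.

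Among the 18 other class I and loading genes that were counted, 12 were measured in enterocyte-like cells. In HFD sham against LFD sham 2 were lower and none higher in each compartment, with medians of −0.27 in the crypts and −0.23 in the villi. In HFD VSG against HFD sham 2 were higher and none lower in the crypts (median −0.02), and 1 was higher and 2 (*H2-Q1* at −0.55 and *H2-Q2* at −0.55) were lower in the villi (median −0.22), where 15.5% of all genes were higher and 15.5% lower. *H2-Q10*, a secreted class I gene, had the largest ratio of HFD VSG to HFD sham, 3.61 (2.89 to 4.42) in the crypts and 2.10 (1.44 to 2.84) in the villi, at levels of 13.9 against 1.14 CPM and 6.11 against 1.42 CPM. It is a near copy of other H2-Q genes, so these UMIs are uncertain. *H2-Q7* was at most at 2.38 CPM in enterocyte-like cells.

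**Figure D5:**
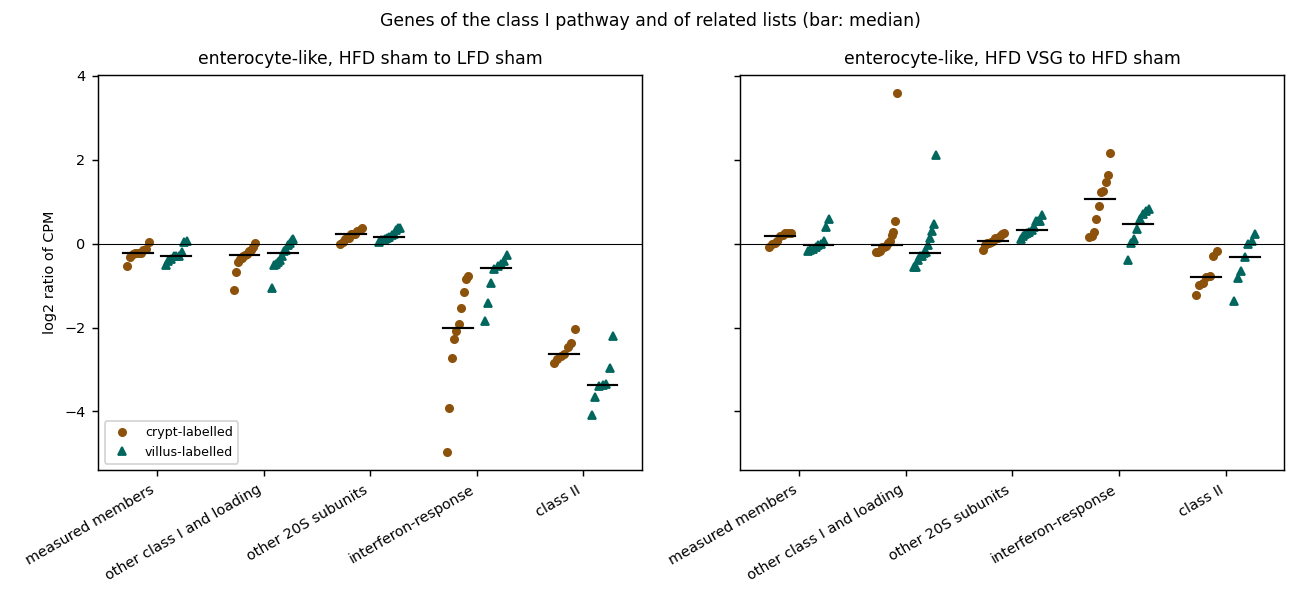
Log2 ratios of CPM (y axis) in enterocyte-like cells, 1 point per measured gene, for the class I processing genes and 4 related lists, circles for crypt-labelled and triangles for villus-labelled libraries, with black bars at list medians. In HFD sham to LFD sham (left) the class II and interferon-response points reach far below the class I processing genes, with class II medians at −2.62 and −3.36.

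In stem-like cells, the dividing cells at the crypt base, counts were smaller and only 5 genes in the crypts and 8 in the villi reached a mean of 50 UMIs. *B2m* was at 293, 297 and 280.5 CPM in the LFD sham, HFD sham and HFD VSG crypts and at 222, 199.7 and 239.7 CPM in the villi. The gene that differed most was *Psmb8*, at 72.1, 45.4 and 45.8 CPM in the crypts and at 72.5, 31.1 and 49.9 CPM in the villi, LFD sham being highest in both compartments. Its log2 ratio of HFD sham to LFD sham was −0.67 (−1.44 to 0.07) in the crypts, from 24 and 46 UMIs, and −1.22 (−1.68 to −0.79) in the villi, from 50 and 317 UMIs. *Psmb8* was the 1 gene of 5 in the crypts and the 1 of 8 in the villi that was lower, with none higher, where 6.76% and 5.08% of all genes were lower and 7.32% and 4.89% higher. *H2-K1* and *H2-D1* had ratios of −0.35 (−0.57 to −0.14) and −0.44 (−0.69 to −0.20) in the villi. The summed ratio was −0.11 (−0.29 to 0.06) in the crypts and −0.33 (−0.43 to −0.24) in the villi. The crypt value rests on 44 and 45 cells, and after subtraction of free RNA with the stated fractions it was −1.26, as *B2m* in the HFD sham crypts went from 297 to 52.6 CPM, so it depends on how much free RNA is assumed. Droplets without a cell held 929 CPM of *B2m* in that library. The villus value was then −0.43.

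In HFD VSG against HFD sham, *Psmb8* in the stem-like cells of the villi had a log2 ratio of 0.68 (0.27 to 1.13), *Psmb9* of 0.50 (0.10 to 0.92), *Psmb10* of 0.43 (0.22 to 0.65), *H2-D1* of 0.43 (0.21 to 0.66) and *B2m* of 0.26 (0.10 to 0.43), while *H2-K1*, *Tap1* and *Tapbp* had 0.09, 0.18 and −0.07. The median of all genes was −0.28 here, and 34.1% of 8361 genes were lower but 6.29% higher, against 1 of 8 (*Psmb8*) higher and none lower. With median-of-ratios scaling, 18.3% of all genes were higher and 16.9% lower, and 5 of the 8 genes were higher and none lower. The sum had a ratio of 0.31 (0.22 to 0.40) by CPM. Stem-like cells of the HFD VSG villi had a median of 29302 UMIs, against 11754.5 in the HFD sham villi, and the part of depth was not tested. In the crypts none of 5 genes passed 0.5, where 6.09% of 3416 genes were higher and 3.81% lower, and the summed ratio was 0.02 (−0.12 to 0.17). That value was 1.15 after subtraction of free RNA with the stated fractions. Cells with a UMI of an immune or B cell gene were 7.31% of the stem-like cells in the LFD sham, 1.96% in the HFD sham and 8.82% in the HFD VSG villi. Without cells with a UMI of an immune or B cell gene, an alternative chosen after seeing the data, the summed ratio was 0.31 (0.22 to 0.40) in the villi and 0.03 in the crypts, and *Psmb8* was at 0.69 and *Psmb9* at 0.55 in the villi, so that 2 of 8 genes were higher.

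Of the other class I and loading genes 10 were measured in the stem-like cells of the villi, and in HFD VSG against HFD sham 1 was higher and 3 were lower, with a median of −0.26, near that of all genes, of which 34.1% were lower. *H2-T23*, a nonclassical class I gene, was at 25.8 against 8.09 CPM (log2 ratio 1.67, 0.88 to 2.60). *Canx* and *Pdia3*, whose products fold class I heavy chains and many other glycoproteins, had −0.75 and −0.68. *Erap1*, which trims peptides, had −0.78 at 49.4 against 84.6 CPM. In a separate list of 2 proteasome activator genes 1 was higher, *Psme2*, at 299.9 against 191 CPM (0.65, 0.48 to 0.82). The median of all genes of −0.28 given above holds for these values too.

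In the immune-like cells of the villi only LFD sham and HFD VSG could be compared. The immunoproteasome genes differed more between these 2 libraries than the class I molecules. Between LFD sham and HFD VSG villi (545 and 418 cells), *B2m*, *H2-K1* and *H2-D1* had log2 ratios of 0.32, 0.29 and 0.34, while *Psmb8* had 0.81 (0.67 to 0.95), *Psmb9* 0.99 (0.72 to 1.26) and *Psmb10* 0.71 (0.50 to 0.93). *Psmb8* was at 560 CPM in the HFD VSG villi and at 312 to 352 CPM in the other 4 libraries. The inducible share in these villi, 72.0%, was within the range of the other libraries. Immune-like cells of the HFD VSG villi had a median of 5931 UMIs, against 3146 in the LFD sham villi, and the part of depth was not tested. The share of all genes beyond 0.5 was not counted for this class. In the crypts, HFD sham had 81 and HFD VSG 79 immune-like cells, and *H2-D1* had a ratio of −0.49 (−0.71 to −0.27) of HFD VSG to HFD sham and of 0.37 (0.17 to 0.57) of HFD sham to LFD sham. The immunoproteasome sum in the LFD sham, HFD sham and HFD VSG crypts was 495, 591 and 552 CPM, with a ratio of HFD VSG to HFD sham of −0.10 (−0.40 to 0.21).

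Over 46 points, 1 for each epithelial class and library with at least 20 cells, the genes correlated among themselves to different degrees. Points of 1 library share its depth and its free RNA, so the coefficients are descriptions. *B2m* and *H2-K1* had a Pearson r of 0.89 and *Psmb9* and *Psmb10* of 0.90, while *H2-K1* and *Psmb9* had 0.10. By these coefficients likeness did not follow role throughout: *Tap1* had 0.84 with *Psmb8* and 0.82 with *Psmb9*, against 0.78 with *Tap2* and 0.73 with *Tapbp*, and *H2-D1* had 0.86 with *Tapbp* against 0.67 with *B2m*. Sums below 3 UMIs were set to 3 here too. *Tap1* had only 10 UMIs in EEC-like, 20 in Paneth-like and 22 in tuft-like cells, so the small differences between its coefficients are uncertain. *Psmb8* followed the mean of the other members best (0.93) and *Psmb9* least (0.62). Of 7152 genes, those most like the mean of the 9 measured members included *Nmi* (0.96), *Rab5c*, *Cttn*, *Mvp*, *Edf1*, *Gapdh*, *Gnb1*, *Pak1* and *Actb* (0.93).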

How the data were processed

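Single-cell RNA-seq libraries of jejunal epithelium were counted by the authors with Cell Ranger 6.0.0 against mm10, per the processing notes in the labels. The deposited values are raw UMI counts per gene and barcode, equal in the raw and filtered matrices for called barcodes. The members and lists were chosen with earlier results of these data known.

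From these counts, barcodes with at least 750 genes and at most 20% mitochondrial UMIs were kept. Simulated doublets were used to remove 482 to 1154 barcodes per library (0.8% per 1000 barcodes, 30 components, 20 neighbours). Cells were integrated and clustered with Seurat 5.3.0 and sctransform 0.4.2 in R 4.3.3 (2000 genes, 30 components, resolution 0.4), with the class I genes left out. A cluster was named from at least 3 fixed markers, by thresholds set after seeing the data. Names are rebuilt and can differ from those of the study.

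UMIs were summed per class and library (at least 20 cells) with numpy 2.4.6, pandas 2.3.3 and scipy 1.17.1 in Python 3.11.15. CPM had exact Poisson, log2 ratios exact conditional binomial and shares exact binomial 95% limits. Sums below 3 UMIs were set to 3 in ratios and correlations. A gene was measured where its UMIs averaged 50 or more over the 3 libraries of a compartment, and a log2 ratio beyond 0.5 was called higher or lower. With 1 pooled library per group and compartment there was no test and no p-value. The ratios were tested on simulated data. List genes were named as the 5 largest ratios beyond 0.5 in each direction and comparison, and *Psmb5*, *Irf1* in the crypts, *Ciita* and *H2-Q7* were named after their values were seen. Some genes that this rule names are not reported here. Free RNA came from droplets below 100 UMIs, and its subtraction was rebuilt from the stated fractions. Other scalings, filters, clusterings and size limits were tried as alternatives.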

Additional observations from a re-analysis of the deposited data

Results flagged for a closer look

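In 3 cases the counting intervals of the crypts and the villi lay on opposite sides of 0 and both ratios also lay on opposite sides of the median of all genes. Other genes had ratios of opposite sign that did not meet both conditions. The difference itself was not tested, since each comparison has 1 library on either side. *B2m* in cycling progenitor-like cells had a log2 ratio of HFD sham to LFD sham of 0.27 in the crypts and −0.17 in the villi, 0.439 apart. After subtraction of free RNA with the stated fractions its level in the HFD sham crypts went from 289 to 41.9 CPM and that in the LFD sham crypts from 239.5 to 217 CPM, so that HFD sham was lower in the crypts too and the opposite signs were lost. *H2-D1* in enterocyte-like cells had a ratio of HFD VSG to HFD sham of −0.07 in the crypts and 0.06 in the villi, a difference of −0.133, and the same subtraction gave −0.23 and −0.07, of 1 sign. *Tapbp* in the same cells and comparison had 0.19 and −0.17, 0.365 apart, and 0.08 and −0.31 after subtraction.

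Droplets with fewer than 100 UMIs, which hold no cell and enter comparisons only through the subtraction of free RNA, carried RNA of the 10 genes. Their summed level was 2514, 2240 and 2346 CPM in the LFD sham, HFD sham and HFD VSG crypts and 1435, 1034 and 1380 CPM in the villi, where a count of 0 would allow 1.5, 1.64 and 0.653 CPM in the crypts and 1.67, 1.6 and 0.656 CPM in the villi. The enterocyte-like cells of the LFD sham villi held B cell markers at 94.9 CPM, from 995 UMIs.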

How the results depend on the processing

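The values below are log2 ratios of the 10 genes summed. HFD sham to LFD sham in enterocyte-like cells was negative in 12 of 12 alternatives, from −0.33 to −0.13 in the crypts and from −0.38 to −0.06 in the villi, and in stem-like cells of the villi in 10 of 10, from −0.43 to −0.25. HFD VSG to HFD sham was positive in 10 of 10 in those stem-like cells, from 0.19 to 0.59, and changed sign between settings in enterocyte-like cells, from −0.10 to 0.06 in the crypts and from −0.15 to 0.01 in the villi. In stem-like cells of the crypts the ratios ran from −1.26 to 0.05 and from −0.08 to 1.15. Median-of-ratios scaling gave HFD VSG to HFD sham of −0.0698 in enterocyte-like crypts, 0.00867 in enterocyte-like villi and 0.59 in stem-like villi. Totals without mitochondrial and damage genes gave −0.25 and −0.38 for HFD sham to LFD sham in enterocyte-like crypts and villi, and −0.0137 and −0.11 for HFD VSG to HFD sham. Subtraction of free RNA with the stated fractions gave −0.13 and −0.0591 (HFD sham to LFD sham, then HFD VSG to HFD sham) in enterocyte-like crypts, −0.21 and −0.15 in enterocyte-like villi, −1.26 and 1.15 in stem-like crypts and −0.43 and 0.43 in stem-like villi, and with a fraction of 0.1 throughout −0.0498 for HFD VSG to HFD sham in enterocyte-like villi. At least 1500 genes per cell gave 0.0572 for HFD VSG to HFD sham in enterocyte-like crypts. At most 10% mitochondrial UMIs gave −0.33 and −0.10 in enterocyte-like crypts, −0.38 and −0.0760 in enterocyte-like villi and 0.19 for HFD VSG to HFD sham in stem-like villi. Clustering with the class I genes gave 0.0187 and 0.0132 for HFD VSG to HFD sham in enterocyte-like crypts and villi. Cluster 0 alone, chosen after seeing the data, gave −0.18 and 0.0170 in the crypts and −0.0566 and −0.0439 in the villi. The causes were not tested. Of 692 values of single genes 583 moved by less than their counting interval. The inducible share in enterocyte-like cells, recomputed under 10 alternatives after seeing the data, moved beyond its counting interval in 15 of 60 values. LFD sham was highest in both compartments in 10 of 10, and HFD VSG lay below HFD sham in the villi in 9 of 10, the exception being at most 10% mitochondrial UMIs, with 60.0%, 50.6% and 51.7% in the LFD sham, HFD sham and HFD VSG crypts and 55%, 48.6% and 49.8% in the villi. Clustering with the class I genes gave 55.8% in the HFD sham crypts and 61.1%, 57.5% and 56.2% in the villi. Subtraction of free RNA gave 56.1% in the HFD sham villi with the stated fractions and 54.0% in the HFD VSG villi with 0.1, cluster 0 alone 56.1% in the HFD sham crypts, and leaving out cluster 14 61.6% in the LFD sham crypts and 51.9% in the HFD VSG villi. Each group has 1 pooled library per compartment, so within a compartment no replicate could be paired or left out. A model that takes the crypts and villi of a group as repeats was not fitted. Depth limited, among others, the stem-like crypts (44 and 45 sham cells) and *Nlrc5*.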

Other observations

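Among the clusters that could not be named, *Nlrc5* was highest in cluster 4 of the HFD VSG villi, at 11.2 CPM from 27 UMIs, against 3.1 CPM in the LFD sham villi and 0 UMIs in the HFD sham villi. The leading genes of cluster 4 were *Gzma*, *Ccl5* and *Ptprc*, which are known from lymphocytes, and it was left unnamed because *Gm42418* and *Lars2*, taken here as signs of damaged cells, were among them too. The named immune-like cells of those libraries were 9.86%, 13.2% and 0.135% of all cells, in the same order, and their part in this level was not tested.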
